A study of Mus musculus with 12 samples.

Results

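Hox genes encode homeodomain transcription factors that lie side by side in 4 clusters, HoxA on chromosome 6, HoxB on chromosome 11, HoxC on chromosome 15 and HoxD on chromosome 2. The 38 Hox genes described here were chosen by name, 10 from HoxA, 10 from HoxB, 9 from HoxC and 9 from HoxD, among 21627 protein-coding genes on chromosomes 1 to 19 and X. Each gene was followed in peak lists of 2 histone marks, H3K27ac and H3K4me1, at 6 stages of mouse gastrulation. The embryos were of the C57BL/6 strain and carried no transgene or treatment that the labels name.

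In the mouse embryo Hox genes are switched on in the order in which they lie along a cluster, from the anterior (low-numbered) to the posterior (high-numbered) end, and the same order is later read along the body axis. The first transcripts appear in the posterior primitive streak during gastrulation, and retinoic acid, Wnt signals and the Cdx factors act upstream of them. H3K27ac marks active promoters and enhancers, whereas H3K4me1 marks enhancers whether or not they are active. Paralogue groups join the genes that hold the same place in different clusters, and group numbers run from anterior to posterior.

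Embryos were grouped by morphology, and each stage drew on 1 or 2 dissection times. Pre_PS embryos (pre-streak) came from E6.0, embryonic day 6.0 after mating. ES embryos, with an early streak, came from E6.0 and E6.5, and MS embryos, with a streak midway, came from E6.0 and E7.0 according to the labels. LS embryos, at the late streak, came from E7.0 and E7.25, OB embryos (described in the labels as lacking an allantoic bud) from E7.25 and E7.5, and EHF embryos, with the first headfold, from E7.5. Extraembryonic tissue was dissected away from Pre_PS to LS, and its removal is not stated for OB and EHF. Chromatin was profiled by CoBATCH, in which an antibody guides a transposase to a histone mark in barcoded single cells. The deposited file of each library is 1 list of broad peaks over its cells, so that the spread between embryos or libraries is unknown and no test between stages was possible.

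Depth is known here only as the number and width of the peaks. The H3K27ac lists held 13398 peaks over 14.3 Mb at Pre_PS and 30072 to 39635 peaks over 35.9 to 42.1 Mb at the 5 later stages. The H3K4me1 lists held 36739 peaks over 23.4 Mb at Pre_PS, and 67.3% of those peaks had the lowest significance value of their list. At the later stages the H3K4me1 lists covered 39.1 Mb at EHF and 44.2 to 51.3 Mb from ES to OB. Because the lists differed in this way, coverage is given as a share, the covered base pairs (bp) per covered Mb of the same list. Each gene was read in its territory, which takes in every base within 100 kb for which this gene has the nearest gene end.

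All 38 Hox genes had H3K27ac and H3K4me1 peaks in their territory at each of the 5 later stages. Hox territories were short, with a median of 11.6 kb against 50.7 kb over the 17147 genes with H3K27ac coverage at ES, MS, OB or EHF. The median covered length per Hox gene at EHF was 2.23 kb for H3K27ac, against 1.29 kb over those genes. The corresponding H3K4me1 lengths were 2.87 kb for the Hox genes and 1.24 kb over 17830 genes. Since the territories are short, H3K27ac took up a median of 19.9% to 23.8% of a Hox territory at the later stages, while its median over all these genes stayed between 2.28% and 2.70%. Hoxb5, a central gene, was among the most densely covered, with 66.4% of its territory under H3K27ac and 69.9% under H3K4me1 at EHF. At the other extreme, Hoxc13, the last gene of HoxC, had 1.63% and 2.11% covered at EHF, in a territory that reaches far out of the cluster.

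**Figure D1:**
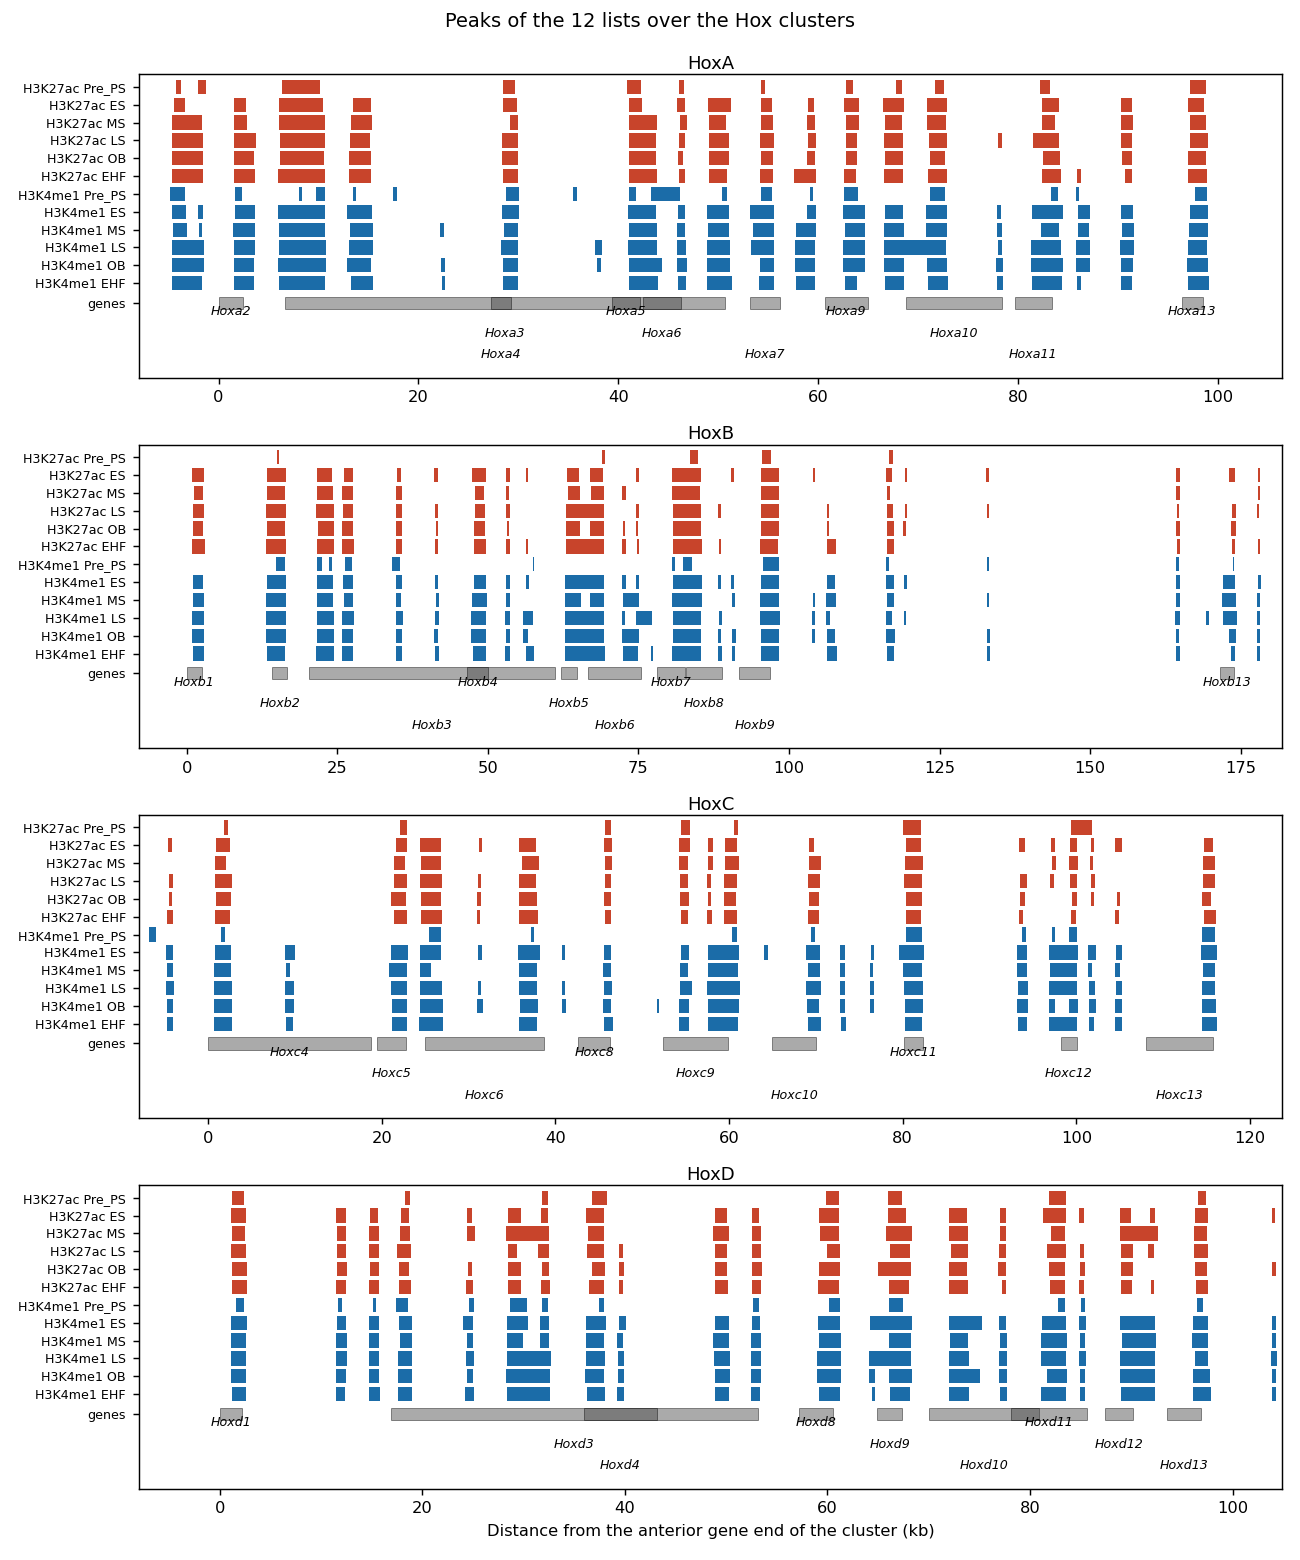
Peaks of the 12 lists (rows; H3K27ac red, H3K4me1 blue, 1 library each) over each Hox cluster, with distance from the anterior gene end in kb on the x axis and the 38 genes as grey boxes. Peaks fall at the same places at the 5 later stages in both marks, and the HoxB rows at Pre_PS are nearly empty for H3K27ac.

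Peaks lined up from stage to stage along the clusters. Cut into 5 kb bins, 15 of 20 HoxA bins had H3K27ac at all 5 later stages and 3 had it at none. The corresponding counts were 17 and 2 of 20 bins in HoxD, 14 and 6 of 24 in HoxC, and 17 and 10 of 35 in HoxB, where Hoxb13 is set apart from Hoxb9 by a long stretch with few peaks. The broadest H3K27ac peak of HoxA at EHF was 4.68 kb wide and lay over an end of Hoxa3 (chr6:52168381-52173057), a gene needed for organs of the third pharyngeal arch such as the thymus. In HoxB the broadest one reached 6.34 kb over Hoxb5 and Hoxb6 (chr11:96298897-96305241), and 99.4% of the peaks of that list were no wider. A 6.22 kb peak covered the same stretch at LS, whereas ES, MS and OB had it as separate peaks. In HoxC the broadest H3K27ac peak at EHF was 2.43 kb wide, over Hoxc6 (chr15:103009958-103012383), and in HoxD it was 2.11 kb wide, over Hoxd8 (chr2:74703988-74706100). For H3K4me1 at EHF the broadest peaks were 4.66 kb over Hoxa3, one over Hoxb5 and Hoxb6 (chr11:96298885-96305383), 3.39 kb over Hoxc9 and 4.29 kb in Evx2, the homeobox gene next to Hoxd13. The median width of all peaks within 100 kb of a cluster was 1.12 kb for H3K27ac at EHF, against 0.805 kb over that whole list. By the authors' q value these peaks sat mid-list, with a median that 52.5% of the list did not exceed.

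RefSeq promoter sequences of the GRCm38.p6 build were matched to 22 of the 38 genes, with 24 start sites in all. The 16 unmatched genes were Hoxa4, Hoxb2, Hoxb3, Hoxb5, Hoxb6, Hoxb7, Hoxb9, Hoxb13, Hoxc5, Hoxc6, Hoxc8, Hoxc9, Hoxc10, Hoxc11, Hoxc12 and Hoxc13. Of the 24 starts, 18 lay at the outer end of the gene and 6 inside the annotated gene, so a gene may have further starts. The 7 sequences below are the 250 bases upstream of a start, 5′ to 3′ on the strand of the gene, and stand for promoters that were covered by both marks at every stage (Hoxd8, Hoxd13), at every stage but Pre_PS (Hoxa2), by H3K27ac at some of the later stages (Hoxd12) or by H3K27ac at none of them (Hoxa7, Hoxb8, Hoxd4). Capitals mark matches to TTTATG, the core bound by Cdx factors, and to TGATTNAT, a site shared by Hox proteins and their Pbx partners, each searched on both strands.
Hoxd8: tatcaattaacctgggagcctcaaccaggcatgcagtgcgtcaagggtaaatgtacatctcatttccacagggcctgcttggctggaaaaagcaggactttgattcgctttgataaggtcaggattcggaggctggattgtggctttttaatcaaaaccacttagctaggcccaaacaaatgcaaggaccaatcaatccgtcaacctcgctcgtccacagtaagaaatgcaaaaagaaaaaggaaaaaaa
Hoxa2: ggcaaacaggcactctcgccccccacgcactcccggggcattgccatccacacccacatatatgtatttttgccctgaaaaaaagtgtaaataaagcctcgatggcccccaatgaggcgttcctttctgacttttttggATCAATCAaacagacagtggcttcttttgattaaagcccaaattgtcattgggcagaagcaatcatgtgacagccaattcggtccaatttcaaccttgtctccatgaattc
Hoxd13: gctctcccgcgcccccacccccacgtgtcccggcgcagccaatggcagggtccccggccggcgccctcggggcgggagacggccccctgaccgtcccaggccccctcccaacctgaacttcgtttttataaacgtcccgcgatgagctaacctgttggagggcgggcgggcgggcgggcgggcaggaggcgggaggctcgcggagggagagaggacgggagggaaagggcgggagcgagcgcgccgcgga
Hoxd12: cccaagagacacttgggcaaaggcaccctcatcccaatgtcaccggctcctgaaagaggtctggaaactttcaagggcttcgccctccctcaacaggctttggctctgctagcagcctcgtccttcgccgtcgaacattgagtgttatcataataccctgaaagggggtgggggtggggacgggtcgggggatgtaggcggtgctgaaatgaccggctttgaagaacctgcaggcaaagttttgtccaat
Hoxa7: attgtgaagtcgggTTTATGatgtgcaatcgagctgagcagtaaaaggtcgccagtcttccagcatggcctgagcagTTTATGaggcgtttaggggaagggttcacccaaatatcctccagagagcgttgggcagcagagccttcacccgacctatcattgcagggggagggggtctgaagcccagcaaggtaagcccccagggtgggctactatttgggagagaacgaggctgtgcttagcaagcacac
Hoxb8: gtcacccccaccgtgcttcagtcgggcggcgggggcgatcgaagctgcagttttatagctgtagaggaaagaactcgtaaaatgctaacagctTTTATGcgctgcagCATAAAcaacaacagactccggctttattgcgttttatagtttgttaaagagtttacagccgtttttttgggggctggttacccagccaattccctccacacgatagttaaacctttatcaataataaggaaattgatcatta
Hoxd4: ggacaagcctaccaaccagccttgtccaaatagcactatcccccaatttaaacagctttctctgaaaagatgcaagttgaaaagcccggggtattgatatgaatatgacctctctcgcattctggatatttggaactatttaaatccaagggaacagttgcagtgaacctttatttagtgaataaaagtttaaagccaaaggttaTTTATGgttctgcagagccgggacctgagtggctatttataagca

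These sequences lie at chr2:74704365-74704614 on the plus strand for Hoxd8, chr6:52164832-52165081 on the minus strand for Hoxa2 and chr2:74667975-74668224 on the plus strand for Hoxd13. That of Hoxd12 lies at chr2:74674763-74675012 on the plus strand. The never covered ones lie at chr6:52218574-52218823 on the minus strand for Hoxa7, chr11:96281655-96281904 on the plus strand for Hoxb8 and chr2:74721728-74721977 on the plus strand for Hoxd4. Coverage was read in windows of 300 bases, from 250 before to 50 after the start. The Hoxd8 window was covered over all 300 bases in all 12 lists, Pre_PS included. The Hoxa2 window was covered over all 300 bases in the 10 lists of the later stages and over 0 bases in both lists of Pre_PS. The Hoxd12 window, upstream of a gene of the digits and the genital bud, held H3K4me1 over all 300 bases at each later stage. Its H3K27ac covered 300 bases at MS, 54 at LS, 83 at OB and 0 at Pre_PS, ES and EHF, so that only the MS list covered it in full.

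Of the 24 Hox promoter windows, 15 had H3K27ac at all 5 later stages, where 41.7% of 32619 RefSeq windows did. A further 7 had it at none (52.3% of all windows), and 2, Hoxc4 and Hoxd12, at some (6.06%). For H3K4me1, 17 windows were covered at all 5 later stages (42.9% of all windows), 6 at none (50.5%) and 1, the upstream start of Hoxa10, at some (6.65%). The uncovered H3K27ac windows were those of Hoxa7, Hoxa9, Hoxb4, Hoxb8 and Hoxd4 and the upstream starts of Hoxa10 and Hoxd11. The nearest H3K27ac peak was between 0.201 and 0.535 kb away for Hoxb4, between 0.567 and 0.695 kb for Hoxa7 and between 0.814 and 1.10 kb for Hoxb8 over the later stages. The Hoxd4 window had its nearest H3K27ac peak 5.21 kb away at ES and MS and 3.21 to 3.32 kb away from LS to EHF. For the upstream start of Hoxa10 it was 3.73 to 3.82 kb away at ES, MS, OB and EHF and 0.0340 kb away at LS. For the upstream start of Hoxd11 it was 2.10 kb away at MS and 0.157 to 0.255 kb away at the other later stages.

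The covered windows were richer in CpG, the dinucleotide that makes up CpG islands. The 15 windows with H3K27ac at all later stages had a median of 20.0 CpG in 250 bases (6 to 35), and the 7 without it had a median of 7.00 (2 to 14). All 8 Hox windows with 20 CpG or more were covered, as were 98.4% of all RefSeq windows this rich. Hoxa2 and Hoxd8, with 6 CpG each, were covered at every later stage, where 30.1% of all windows with 5 to 9 CpG were. Hoxb8 and Hoxb4, with 12 and 14 CpG, were not covered, although 85.0% of all windows with 10 to 19 CpG were. TTTATG occurred in 5 of the 24 upstream sequences (20.8%), and in 10.8% of all. The 5 were those of Hoxa7 and Hoxb8, with 2 matches each, and Hoxd3, Hoxd4 and the upstream Hoxd11 start, with 1 each, and of these the Hoxd3 window alone was covered. TGATTNAT occurred in 2 sequences (8.33%; 2.84% of all), those of Hoxa2 and the inner Hoxd11 start, both covered. The other motifs searched were also more frequent in the Hox sequences than in all sequences. The CCAAT box occurred in 14 of the 24 (58.3%; 34.0% of all). AGGTCA, a nuclear receptor motif, occurred in 6 (25.0%; 14.1% of all) and the TATA box TATAAA in 4 (16.7%; 12.4% of all). The higher frequency was thus not particular to TTTATG and TGATTNAT, and it was not tested. All these matches are letters in a window and say nothing of binding.

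With ends in place of these starts, all 38 genes could be read. At the 5 later stages 35 to 37 of the 38 had an H3K27ac peak within 1 kb of an outer end of the gene, where 64.2% of all 21627 genes did at ES, 62.4% at MS, 65.1% at LS, 63.8% at OB and 63.9% at EHF. For H3K4me1 the count was 37 at each of these stages, against 66.2%, 65.5%, 66.5%, 66.4% and 64.2% of all genes. Hoxb3, whose annotated span reaches past Hoxb4, was without such a peak in every list. At Pre_PS the counts were 21 genes for H3K27ac (41.7% of all genes) and 26 for H3K4me1 (47.8%).

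To ask whether the clusters gained coverage as gastrulation proceeded, the late stages (OB and EHF) were set against the early ones (ES and MS). None of the 38 genes had a share at each late stage at least 1.5 times that at each early stage, in either mark, and none was lower by that size. Over all genes with coverage, 1.48% were higher and 2.25% lower for H3K27ac, and 0.830% and 2.29% for H3K4me1, so that a count of 0 among 38 is close to the background. With any size of difference allowed, 12 Hox genes had both late H3K27ac shares above both early ones (31.6%; 20.2% of all genes) and 3 had both below (7.89%; 12.8% of all). For H3K4me1, 8 were higher (21.1%; 14.4% of all) and 2 lower (5.26%; 13.3% of all). The median late to early ratio of the Hox genes was 1.10 for H3K27ac (0.579 to 1.74) and 1.08 for H3K4me1 (0.668 to 1.38), against 1.02 and 1.01 over all genes. The middle 50% of all genes had ratios of 0.870 to 1.15 for H3K27ac and 0.848 to 1.14 for H3K4me1, a range that holds both Hox medians. Without the EHF library the H3K4me1 median of the Hox genes was 0.975, against 0.954 over all genes.

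**Figure D2:**
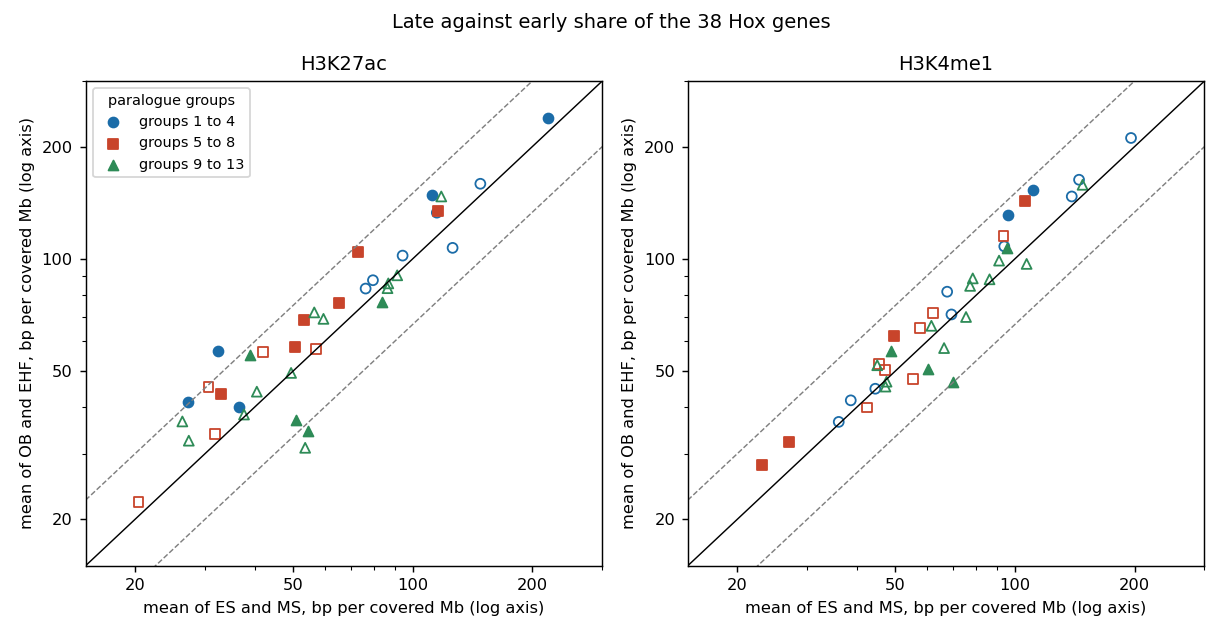
Mean share of OB and EHF (y axis) against that of ES and MS (x axis), in bp per covered Mb on log axes, for the 38 Hox genes by paralogue group and mark; filled symbols are genes whose late and early stages do not overlap, the solid line is equality and dashed lines are 1.5 times either way. Most genes lie between the dashed lines, and the H3K27ac points below equality are mainly of groups 9 to 13.

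The non-overlapping H3K27ac genes were also counted by their position in the clusters. Over all genes 20.2% were higher and 12.8% lower by this rule. Of 11 genes in paralogue groups 1 to 4, 5 were higher late and 0 lower. In groups 5 to 8 the counts were 6 higher and 0 lower of 11, and in groups 9 to 13 they were 1 higher, Hoxa11, and 3 lower of 16. The median H3K27ac ratio was 1.09, 1.17 and 1.01 in the same order. For H3K4me1, where 14.4% of all genes were higher and 13.3% lower, the counts were 2 higher of 11 and 4 higher of 11 in the first 2 classes. Groups 9 to 13 had 2 higher and 2 lower of 16. The median H3K4me1 ratios were 1.08, 1.15 and 1.05. Hoxa3, Hoxb3 and Hoxd3 have long annotated spans, so parts of their territories lie beside genes of groups 5 to 8. The difference between the position classes was not tested.

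Among the anterior genes, Hoxa2, which sets the identity of the second branchial arch, had the largest H3K27ac difference of HoxA. Its H3K27ac share (chr6:52162417-52164831) was 0 at Pre_PS, 28.2 at ES, 36.6 at MS, 51.9 at LS, 54.7 at OB and 58.0 bp per Mb at EHF. Both early values lay below the 3 later ones, and the late to early ratio was 1.74. Its H3K4me1 share was 40.6 at ES, 48.5 at MS, 42.2 at LS, 39.6 at OB and 49.9 at EHF, and these stages overlapped. Hoxa3 had the highest share of any Hox gene, with H3K27ac at 267 at Pre_PS, 204 at ES, 234 at MS, 202 at LS, 235 at OB and 242 at EHF. Its MS and OB values were nearly equal, so its place among the 12 higher genes rests on a small margin. Its H3K4me1 share was 188 at ES, 205 at MS, 182 at LS and OB, and 240.4 at EHF, where EHF alone stood above the rest. In covered length Hoxa3 H3K4me1 stayed between 9.06 and 9.39 kb, and the EHF list covers the fewest Mb of the later stages. The annotated span of Hoxa3 reaches past Hoxa6, so part of its territory lies between Hoxa6 and Hoxa7. A region in that part held 1.75 to 2.26 kb of H3K27ac at the later stages, where the whole territory held 8.40 to 8.74 kb.

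Hoxc4, the first gene of HoxC, had H3K27ac shares of 78.9 at Pre_PS, 113 at ES, 109.8 at MS, 128 at LS, 137 at OB and 158 at EHF. Each stage from LS on was above ES and MS, with a difference of 36.0 bp per Mb, the largest of the named H3K27ac differences. Hoxc4 H3K4me1 ran from 143 to 147 between ES and OB and was 182 at EHF. Hoxb3 had H3K4me1 shares of 96.3 at ES, 95.6 at MS, 127 at LS, 108 at OB and 154 at EHF, and both late values exceeded both early ones. Part of its territory lies between Hoxb5 and Hoxb4. A region there (chr11:96310529-96312452) had 0.393 kb of H3K4me1 at ES, 0 at MS, 0.792 kb at OB and 1.31 kb at EHF. The whole Hoxb3 territory had 4.76, 4.23, 5.50 and 6.03 kb at these stages. Hoxb3 H3K27ac was 106 at ES, 123 at MS, 108 at LS, 123 at OB and 142 at EHF, and its MS and OB values could not be told apart. In HoxD, Hoxd4 had H3K4me1 shares of 114 at ES, 108 at MS, 134 at LS, 134 at OB and 171 at EHF, a ratio of 1.38 that was the highest of any Hox gene for this mark. Its covered H3K4me1 length was 5.63 kb at ES, 4.76 at MS, 6.87 at LS, 6.83 at OB and 6.69 kb at EHF. Hoxd4 H3K27ac went another way, with 89.8 at ES, 162 at MS, 96.2 at LS, 103 at OB and 110.3 at EHF, so that MS was its highest stage. Hoxd3, which shapes the first cervical vertebra, had H3K27ac at 123 at ES, 172 at MS, 129 at LS, 149 at OB and 169.6 at EHF, and H3K4me1 from 126 to 148 up to OB and 168 at EHF. Its early and late stages overlapped in both marks. In covered length Hoxd3 H3K4me1 was 6.55 kb at EHF, within the 6.38 to 6.73 kb from ES to OB. The remaining anterior genes, Hoxa4, Hoxb1, Hoxb2, Hoxb4 and Hoxd1, had late to early ratios of 1.08 to 1.52 for H3K27ac and 1.01 to 1.21 for H3K4me1.

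Hoxb6 had the largest differences of HoxB and of the central genes in both marks. Hoxb6 (chr11:96292814-96301569) had H3K27ac shares of 34.8 at Pre_PS, 64.3 at ES, 81.3 at MS, 94.1 at LS, 82.8 at OB and 125 at EHF. Its H3K4me1 shares were 0 at Pre_PS, 95.2 at ES, 117 at MS, 123 at LS, 126 at OB and 161 at EHF. EHF had the highest share in both marks, and the late to early ratios were 1.43 and 1.35. The OB value was close to the MS value for H3K27ac. LS and EHF, with the highest Hoxb6 H3K27ac shares, were the later stages with 1 joined H3K27ac peak over Hoxb5 and Hoxb6. H3K27ac covered that region over 4.23 kb at ES, 4.28 at MS, 6.22 at LS, 4.58 at OB and 6.34 kb at EHF. The part of this joining in the Hoxb6 difference was not tested. In covered length of Hoxb6, EHF was highest for H3K27ac alone, and Hoxb6 H3K4me1 was 6.40 kb at OB and 6.29 kb at EHF. Hoxb7, its neighbour, had the smallest H3K27ac difference of HoxB, with 53.8 at ES, 60.5 at MS, 49.8 at LS, 56.5 at OB and 58.2 at EHF. Hoxc6, a gene of the thoracic region, had H3K27ac at 115 at ES, 118 at MS, 112 at LS, 132 at OB and 136 at EHF, without overlap of late and early stages. Hoxc6 H3K4me1 was 109 at ES, 78.2 at MS, 95.5 at LS, 106 at OB and 124 at EHF, with overlap. In covered length Hoxc6 H3K4me1 was 4.86 kb at EHF, below 5.38 kb at ES and 5.42 kb at OB. Hoxa6 H3K4me1 was 45.2 at ES, 54.1 at MS, 48.3 at LS, 60.1 at OB and 63.9 at EHF, and both late values were above both early ones. This order also held in covered length (2.23 kb at ES, 2.39 at MS, 3.06 at OB and 2.50 at EHF), with OB highest. Hoxa7 had H3K4me1 at 60.5 at MS, 59.3 at LS, 40.8 at OB and 54.4 at EHF, with ES between the late values, the lowest difference of HoxA in this mark. Its H3K27ac lay between 27.4 and 33.8 from ES to OB and was 57.8 at EHF alone. Hoxa5, Hoxb5, Hoxb8, Hoxc5, Hoxc8 and Hoxd8 had ratios of 1.07 to 1.32 for H3K27ac and 0.942 to 1.21 for H3K4me1.

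Posterior genes showed both directions. Hoxb9 had H3K27ac at 162 at Pre_PS, 142 at ES, 94.5 at MS, 123 at LS, 138 at OB and 156 at EHF, and the ES value lay between both late ones. Hoxd9 had 42.0 at ES, 71.0 at MS, 47.5 at LS, 89.6 at OB and 54.0 at EHF for H3K27ac, and 83.4, 49.3, 80.3, 56.2 and 59.0 at the same stages for H3K4me1. Its marks were highest at different stages, H3K27ac at OB and H3K4me1 at ES. Hoxc12 (chr15:102936826-102938609) had H3K27ac at 171 at Pre_PS, 58.8 at ES, 49.9 at MS, 65.0 at LS, 42.0 at OB and 26.9 at EHF, so that both late values were below every earlier one. Hoxc12 H3K4me1 was 107 at ES, 108 at MS, 99.3 at LS, 71.3 at OB and 122 at EHF, with OB lowest and EHF highest. Its covered length was instead highest at ES, with 5.28 kb against 4.79 kb at EHF. Hoxd13, which patterns the digits and the genital bud, had lower late H3K27ac as well, with 43.6 at ES, 58.1 at MS, 44.5 at LS, 32.3 at OB and 41.7 at EHF.

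Hoxd12 had the lowest late to early ratio of all Hox genes for H3K27ac, 0.579, and this rested on the MS library. Its shares (chr2:74675013-74677705) were 25.9 at ES, 81.3 at MS, 32.0 at LS, 32.0 at OB and 30.1 at EHF, so that 4 of the 5 later stages lay close together. Hoxd12 H3K4me1 was 57.1 to 63.1 from ES to OB and 74.1 at EHF. In covered length it was 2.79 to 2.97 kb from ES to OB and 2.90 kb at EHF. Hoxb13, a gene of the tail end of the body, had H3K4me1 at 62.7 at ES, 77.2 at MS, 80.6 at LS, 44.3 at OB and 49.3 at EHF, and its ratio of 0.668 was the lowest of any Hox gene for this mark. Hoxb13 H3K27ac was 45.8 at ES, 29.4 at MS, 31.3 at LS, 39.1 at OB and 37.3 at EHF, with overlap. Hoxa13, the last gene of HoxA, had the lowest H3K27ac difference of its cluster, at 79.5 at ES, 93.4 at MS, 80.5 at LS, 76.9 at OB and 90.0 at EHF. The other posterior genes, Hoxa9, Hoxa10, Hoxa11, Hoxc9, Hoxc10, Hoxc11, Hoxc13, Hoxd10 and Hoxd11, had ratios of 0.918 to 1.42 for H3K27ac and 0.836 to 1.16 for H3K4me1.

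**Figure D3:**
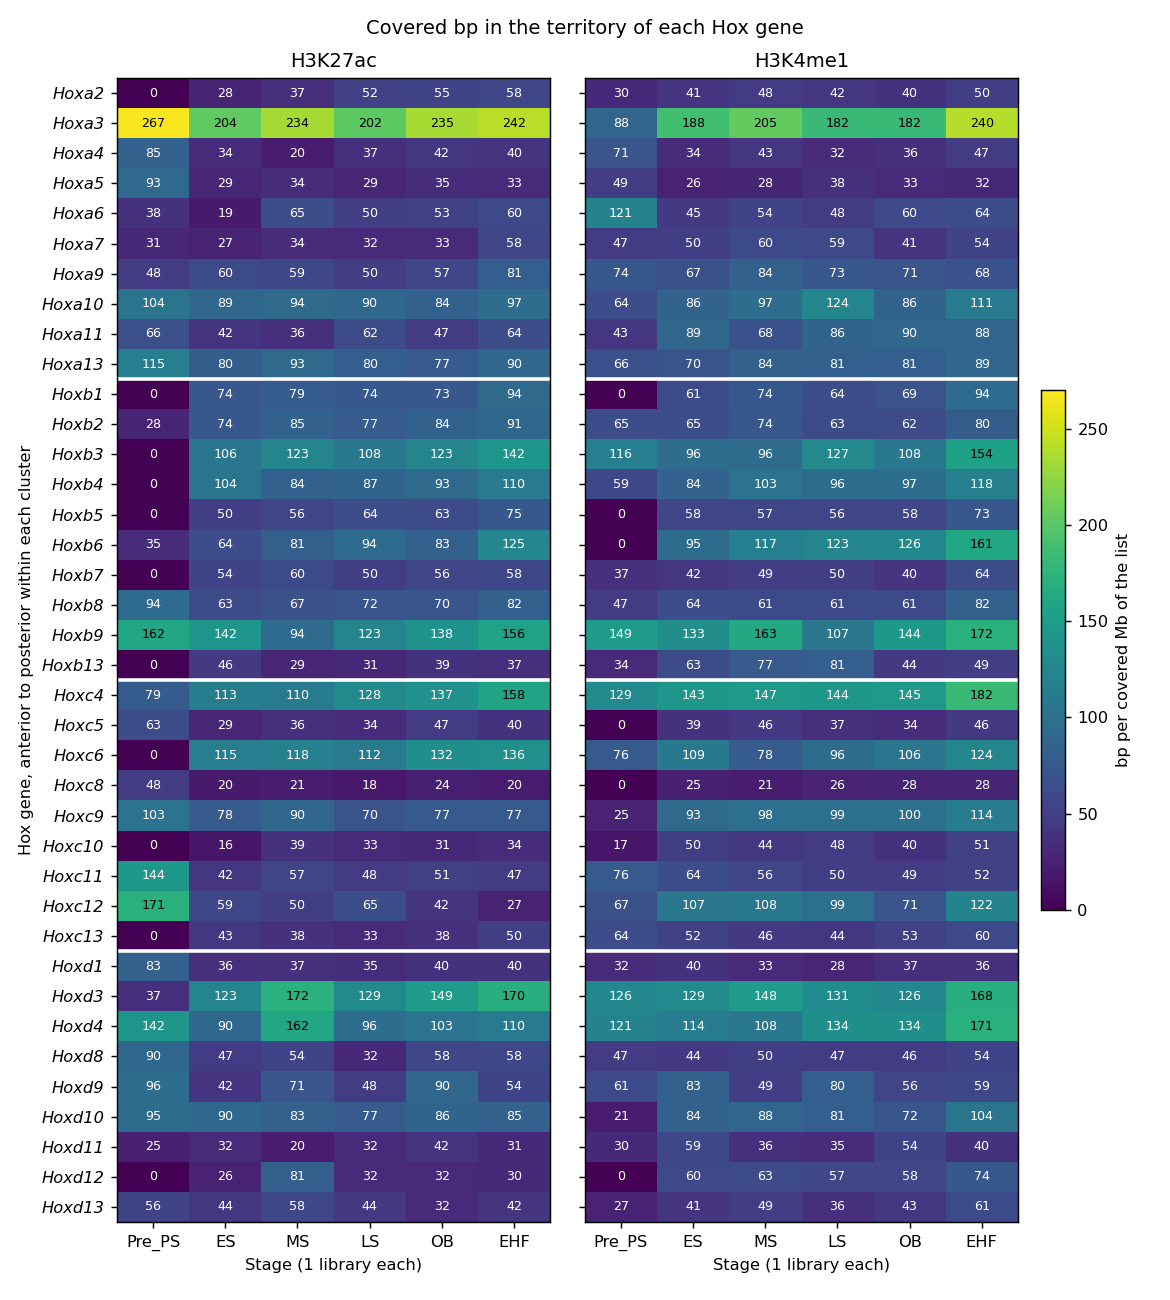
Share of each of the 38 Hox genes (rows, anterior to posterior within each cluster) at each stage (columns, 1 library each) in both marks, in bp per covered Mb, printed in the cells rounded to whole numbers. Hoxa3 is the highest row at the 5 later stages in both marks, and all cells at 0 are in the Pre_PS column.

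EHF was the highest of the 5 later stages for 19 of the 38 genes in H3K27ac (25.5% of all genes) and for 27 of 38 in H3K4me1 (33.7% of all genes). HoxB held 8 of the 19 and 9 of the 27. The scale bears on this count, since the EHF list of H3K4me1 covers fewer Mb than the other later lists. In covered bp without scaling, EHF was highest for 12 Hox genes in H3K27ac (14.1% of all genes) and for 4 in H3K4me1 (5.23%), and lowest for 5 (18.2%) and 10 (38.2%).

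Each cluster was then read as a whole, from its first to its last gene end with 100 kb on either side. The HoxB window had H3K27ac shares of 823 at ES, 825 at MS, 855 at LS, 871 at OB and 1041 at EHF. In covered length these were 34.1, 29.6, 36.0, 31.7 and 37.7 kb, so that EHF was highest on both scales and the stages before it did not keep their order. HoxA ran from 765 at ES to 1055 at EHF, HoxC from 532 to 611, and HoxD had its highest value, 923, at MS. The late to early ratios for H3K27ac were 1.17 in HoxA (95% interval 0.759 to 1.80 from the number of peaks, counting error only), 1.16 in HoxB (0.786 to 1.71), 1.09 in HoxC (0.710 to 1.69) and 0.974 in HoxD (0.643 to 1.48). For H3K4me1 they were 1.10, 1.13, 1.06 and 1.08, with intervals that also held 1. The HoxD ratio for H3K27ac turned to 1.13 without the MS library and 1.01 without EHF, and without EHF the H3K4me1 ratios turned to 0.989 in HoxB, 0.949 in HoxC and 0.971 in HoxD. With the same number of peaks taken from each list by q value, the H3K27ac ratios were 2.67 in HoxA, 6.14 in HoxB, 0.773 in HoxC and 1.21 in HoxD, and with the upper 50% of each list that of HoxB was 2.03. Over the 12 alternatives, the H3K27ac ratio crossed 1 in 5 for HoxD, in 1 for HoxC and in 0 for HoxA and HoxB. With every deposited peak used, all of these intervals held 1. Their width was set by the number of peaks alone and does not measure the spread between libraries or embryos. They therefore cannot decide whether a whole cluster differed between the early and late stages.

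**Figure D4:**
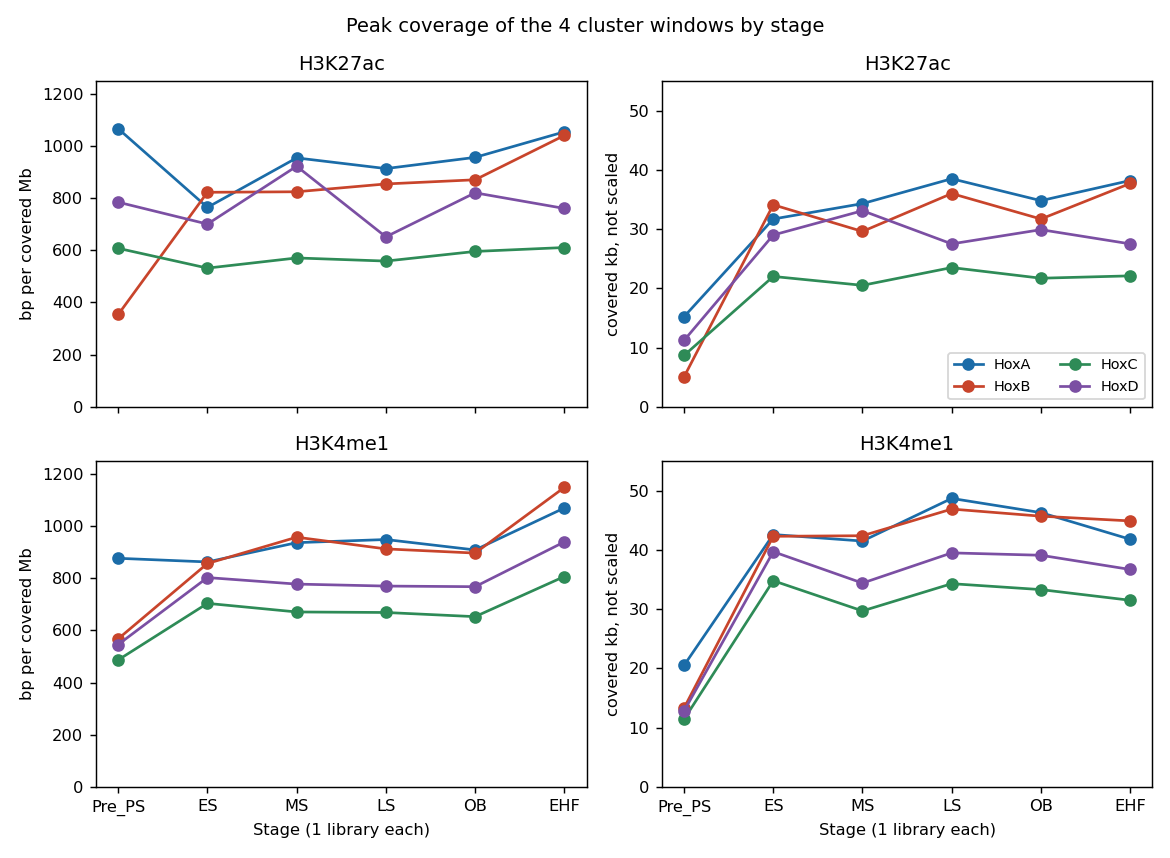
Coverage of the 4 cluster windows by stage, for H3K27ac (top) and H3K4me1 (bottom), as a share in bp per covered Mb (left) and as covered kb without scaling (right), with 1 point per library. HoxB H3K27ac stands at 354 at Pre_PS and 1041 at EHF, and the rise of H3K4me1 shares at EHF is absent from the unscaled values.

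At Pre_PS the clusters differed from each other in H3K27ac. The HoxB window had a share of 354 from 6 peaks, below its range of 823 to 1041 at the later stages, while HoxA had 1067 from 15 peaks, above its later range of 765 to 1055. HoxC had 608 from 8 peaks and HoxD 785 from 11, both within their later ranges. In covered length every window was lower at Pre_PS than at any later stage. HoxA had 15.2 kb against 31.7 to 38.5 kb later, and HoxB 5.04 kb against 29.6 to 37.7 kb. Of the 38 genes, 11 had no H3K27ac at Pre_PS (28.9%; 29.3% of all genes with coverage at the 5 later stages). Hoxb1, Hoxb3, Hoxb4, Hoxb5, Hoxb7 and Hoxb13 made up 6 of the 11, with Hoxa2, Hoxc6, Hoxc10, Hoxc13 and Hoxd12 as the others. For H3K4me1, 6 genes had none (15.8%; 15.4% of all), namely Hoxb1, Hoxb5, Hoxb6, Hoxc5, Hoxc8 and Hoxd12. In the cluster windows 34 of 73 Pre_PS H3K4me1 peaks (46.6%) were at the lowest significance of their list, against 0 to 4 of 100 to 110 at the later stages. The part of the shallower Pre_PS lists in these gaps and in the Pre_PS shares was not tested.

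Merged over the 6 stages, the peaks of the 4 windows formed 100 H3K27ac regions and 121 H3K4me1 regions. At all 6 stages 37 H3K27ac regions were present (37.0%; 21.5% of the 51619 regions of the genome) and 56 H3K4me1 regions (46.3%; 20.7% of 77300). Presence was an overlap of at least 1 bp, which a wide region meets more easily. The 6.41 kb H3K27ac region chr11:96298860-96305266, for instance, counted as present at Pre_PS from 0.496 kb. Regions of a single stage were few, with 7 for H3K27ac (25.5% of all regions) and 16 for H3K4me1 (36.4%). HoxB stood below the other clusters, with 5 of 33 H3K27ac regions at all 6 stages, against 13 of 23 in HoxA, 8 of 22 in HoxC and 11 of 22 in HoxD. Only 2 H3K27ac regions were absent at ES and MS and present at OB and EHF (2.38% of all regions), and 1 showed the opposite (2.28%). The first gained region, chr11:96260367-96261965 in Gm53, lay 9.37 kb from Hoxb9 and was covered over 0.363 kb at LS, 0.404 kb at OB and most of its 1.60 kb at EHF. H3K4me1 already covered 1.34 kb of it at ES and 1.60 kb at MS. The other gained region, chr2:74725234-74725714, lay inside the annotated spans of Hoxd3 and Hoxd4, and had 0.418 kb at LS, 0.447 kb at OB and 0.333 kb at EHF, with H3K4me1 at ES and MS as well. The lost region, chr15:102939197-102939895, lay 0.588 kb from Hoxc12 and had 0.482 kb at ES, 0.429 kb at MS, 0.504 kb at LS and 0 at OB and EHF, while its H3K4me1 stayed at 0.544 to 0.699 kb from ES to EHF. For H3K4me1 no region was gained (1.23% of all) and 1 was lost (2.32%), chr11:96151099-96151509 in Ttll6 in the flank of HoxB.

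The overlap of both marks in the Hox windows was set against that over the genome. At the 5 later stages 92.5% to 97.7% of the H3K27ac bases in the 4 windows were also covered by H3K4me1, and over all chromosomes 83.1% to 91.9% were. Each later stage had the higher value in the Hox windows. In the reverse direction 70.1% to 78.2% of the H3K4me1 bases in the windows carried H3K27ac, against 65.7% to 78.1% over all chromosomes. In this direction the windows were lower at LS (72.4% against 73.0%) and nearly equal at EHF (78.2% against 78.1%). At Pre_PS 50.1% of the H3K27ac bases in the windows had H3K4me1, and 46.7% over all chromosomes. Neighbouring later stages also shared more of their coverage in the windows, with Jaccard indices (shared over joint bases) of 0.728 to 0.804 for H3K27ac and 0.775 to 0.848 for H3K4me1, against 0.639 to 0.692 and 0.610 to 0.704 over the genome. The median peak in the windows was also wider than that of the whole list at each later stage in both marks. The part of peak width in these higher overlaps was not tested.

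**Figure D5:**
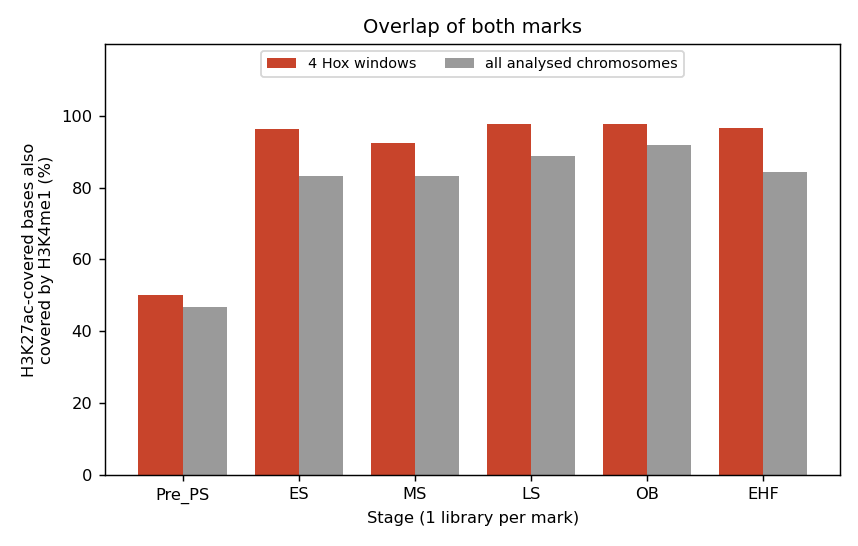
Percentage of H3K27ac-covered bases that H3K4me1 also covers (y axis) at each stage, in the 4 Hox windows (red) and over all analysed chromosomes (grey), from 1 library per mark and stage. The red bars stand above the grey ones at every stage, by less at Pre_PS (50.1% against 46.7%) than at ES (96.3% against 83.1%).

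Genes that act upstream of the clusters or beside Hox proteins were read in the same way. Of 22 regulators and cofactors, 0 were called in either direction at 1.5 times in either mark. Without a limit of size, 4 were higher late and 1 lower for H3K27ac, and 6 were higher and 2 lower for H3K4me1. Over all genes the shares without overlap were 20.2% higher and 12.8% lower for H3K27ac and 14.4% and 13.3% for H3K4me1, so that the 4 higher regulators lie near the background. Cdx2, a caudal-type activator of central and posterior Hox genes, had H3K27ac at 175 at Pre_PS, 128 at ES, 145 at MS, 142 at LS, 164 at OB and 164 at EHF. Cdx2 H3K4me1 was 127 at ES, 121 at MS, 117 at LS, 148 at OB and 146 at EHF, and both marks were higher at both late stages than at both early ones. Cdx1 had low shares, from 20.7 to 26.9 for H3K27ac from ES to EHF. Cdx4 H3K27ac was 0 at Pre_PS, MS and EHF, and 20.8 at most, at OB. Evx1 and Evx2, the homeobox genes at the posterior ends of HoxA and HoxD, had H3K27ac late to early ratios of 1.02 and 0.883 and overlapping stages. Among 24 homeobox genes outside the clusters, 3 were higher late and 6 lower for H3K27ac, and 8 were higher and 2 lower for H3K4me1, with median ratios of 0.975 and 1.10. The same shares over all genes, 20.2% and 12.8% for H3K27ac and 14.4% and 13.3% for H3K4me1, are the background of these counts.

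Since extraembryonic tissue may remain at OB and EHF, markers of such cells are given beside the late values. The summed H3K27ac share of 15 lateral plate and extraembryonic mesoderm markers was 1623 at ES, 1748 at MS, 1829 at OB and 2010 at EHF. Of the 14 with coverage, 6 were higher late and 1 lower, against 20.2% and 12.8% of all genes. The lower gene, Col6a1, was the only gene of any list called at 1.5 times. The 13 trophoblast markers summed to 1144 and 1207 early and to 1345 and 1275 late, the 12 blood and endothelium markers to 932 and 911 early and 1018 and 994 late, and the 12 visceral endoderm markers to 435 and 393 early and 415 and 437 late. In these 3 lists 4 of 12, 3 of 10 and 2 of 7 genes with coverage were higher late and 1, 0 and 0 lower, against 20.2% higher and 12.8% lower over all genes. For H3K4me1 the mesoderm list summed to 1770 and 1782 early and 1822 and 2091 late, with 3 of 14 genes with coverage higher and 1 lower. Over all genes 14.4% were higher and 13.3% lower for H3K4me1. The H3K4me1 sums were 1214 and 1132 early and 1223 and 1312 late for the trophoblast list, and 1032 and 917 early and 996 and 1167 late for the blood list. In these lists 3 of 12 and 1 of 11 genes with coverage were higher, and 0 and 1 lower. The H3K4me1 sums of the visceral endoderm list were lower late, at 406 and 369.9 early and 367 and 333 late, with 0 of 8 genes higher and 2 lower. Afp, Ttr, Cubn, Rhox5 and Cer1 of the visceral endoderm, Prl3d1 of the trophoblast, Postn of the mesoderm list and Hbb-bh1 and Gata1 of the blood had no H3K27ac at OB or EHF. The mesoderm, trophoblast and blood sums of H3K27ac were thus higher at both late stages, as were those of the Hox genes at EHF (3001, against 2435 at ES and 2763 at MS), and their part in the Hox values was not tested. In lists pooled over the cells of whole embryos, a change in the number of cells of a type and a change within cells cannot be told apart.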

How the data were processed

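Single-cell CoBATCH libraries of H3K27ac and H3K4me1 from C57BL/6 embryos at 6 stages were used, 1 library per stage and mark. Alignment, duplicate removal, peak calling and signal tracks used Bowtie2, Picard, MACS2 and deepTools on mm10, per the submitters' processing notes; for these tools, neither version nor setting is given in the sources used here. The authors deposited 1 broad peak list per library. Each list gives per peak a score, which was not used, a fold enrichment (a ratio), a −log10 p value and a −log10 q value, as deposited. Read depth is unknown, so precision is limited by the number of peaks, and intervals are 95% Poisson intervals that cover counting error only. They treat peaks as independent counts, although many peaks recur at the same places from stage to stage.

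Peaks on chromosomes 1 to 19 and X were kept and merged within a list with Python 3.11.15, NumPy 2.4.6, pandas 2.3.3 and SciPy 1.17.1, and figures were drawn with matplotlib 3.10.9. Gene ends and promoters came from RefSeq GRCm38.p6, the same primary assembly as mm10. Shares were computed per covered Mb of each list over nearest-end territories of at most 100 kb. A gene was called higher where OB and EHF were each at least 1.5 times ES and MS, and lower for the opposite. No test was run, because each group holds 1 library. The scripts were tested on simulated data. Named genes were, in each cluster and mark, the 2 with the largest and the 1 with the lowest late minus early difference, beside Cdx1, Cdx2, Cdx4, Evx1 and Evx2; other Hox genes named singly were picked after their values were seen. The Hox genes, gene lists and rules were chosen with earlier results of these data known. The counts without a limit of size and of EHF as the highest stage were added after the shares were seen. Alternatives changed the early stages, the peaks used, the territory, the scaling, the size of a call, the overlap and the window flank, or left out 1 library.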

Additional observations from a re-analysis of the deposited data

Results flagged for a closer look

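Read as shares, Hoxc9 was the Hox gene whose marks differed in opposite directions at every stage compared. Its H3K27ac share was lower at both late stages than at both early ones, with a mean difference of -6.89 bp per covered Mb (77.5 at ES, 89.5 at MS, 76.6 at OB and 76.6 at EHF). The ES value exceeded the late ones by a narrow margin. Its H3K4me1 share was higher at both late stages, with a mean difference of 11.4 bp per covered Mb (93.0 at ES, 98.4 at MS and 114 at EHF, with OB between MS and EHF). In covered length its H3K4me1 was 4.59 kb at ES, 4.35 at MS, 5.09 at OB and 4.46 at EHF. The late and early stages thus overlapped without scaling. The difference between both marks was not tested, since each stage and mark has 1 library.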

How the results depend on the processing

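With Pre_PS and ES as the early stages, 2 genes (Hoxa2 and Hoxc10) were called higher for H3K27ac, 0 regions were lost for H3K27ac, and 1 region was gained for H3K4me1. With the same number of peaks taken from each list by q value, 4 genes were called higher for H3K27ac (Hoxa3, Hoxb3, Hoxc8 and Hoxd3), and the genes without overlap numbered 6 higher and 0 lower for H3K27ac and 5 higher for H3K4me1. The late to early H3K27ac ratio then became 2.67 in the HoxA window, 6.14 in the HoxB window and 0.773 in the HoxC window, and 17 Hox genes were higher late and 5 lower, the other 16 having no difference; H3K27ac regions gained and lost numbered 6 and 0, and those of H3K4me1 numbered 1 and 0. This setting leaves 13398 peaks in each H3K27ac list. The median H3K27ac ratio of the Hox genes with early coverage was then 0.812, against 1.02 over all genes. Of the 12 genes named by the rule for H3K27ac, 7 kept the direction of their difference. With the upper 50% of each list, 4 genes were called higher for H3K27ac (Hoxa9, Hoxb1, Hoxb4 and Hoxd4), the HoxB window ratio was 2.03, 6 regions were gained and 0 lost for H3K27ac and 1 gained and 2 lost for H3K4me1, and for H3K4me1 3 genes were higher and 0 lower without overlap. Without the peaks at the lowest significance, 1 gene was lower without overlap and 0 regions were lost for H3K4me1. In covered bp without scaling, 1 gene (Hoxa2) was called higher for H3K27ac, the lower genes without overlap numbered 5 for H3K27ac and 4 for H3K4me1, and EHF was the highest stage for 12 and 4 genes. Scaled by the coverage within 1 kb of gene ends, 1 gene (Hoxa2) was called higher for H3K27ac, 4 were lower without overlap for H3K4me1, and EHF was highest for 10 and 15 genes (14.9% and 14.1% of all genes). With gene bodies plus 2 kb, 1 gene (Hoxb13) was called lower for H3K4me1. At a size of 1 times, the calls numbered 12 higher and 3 lower for H3K27ac and 8 higher and 2 lower for H3K4me1. With an overlap of 50% of a region, 2 were lost for H3K4me1. The shares of all genes called or without overlap under each changed setting are not given here and may change with the setting. The counts of Hox genes are therefore not read against a background. The cause of these differences was not tested.

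With 1 of the ES, MS, OB and EHF libraries left out, which also makes each rule easier to meet, H3K27ac calls numbered 0 to 4 higher and 0 to 1 lower, genes without overlap 16 to 25 higher and 3 to 11 lower, and regions 2 to 11 gained and 1 to 4 lost. For H3K4me1 the calls numbered 0 to 2 higher and 0 to 1 lower, genes without overlap 9 to 30 higher and 2 to 14 lower, and regions 1 to 5 gained and 1 to 4 lost. The easier rules apply to all genes as well, and their shares are not given here, so these counts have no background beside them. The HoxD window ratio for H3K27ac ran from 0.857 without ES to 1.13 without MS. Without the EHF library, the H3K4me1 ratio was above 1 in 17 Hox genes and below 1 in 21, with a median of 0.975, against 29 above 1 with it. No paired analysis was possible because each stage and mark has 1 library and the replicate number 1 pairs nothing.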
